A study of Mus musculus with 6 samples.

Results

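The pro-survival genes of the BCL2 family were followed in mouse eosinophils given IL-33. They were chosen by gene symbol and number 7 of the 23420 genes measured: Bcl2l1 (the protein BCL-XL), Mcl1, Bcl2, Bcl2l2 (BCL-W) and the copies Bcl2a1a, Bcl2a1b and Bcl2a1d (A1, also called BFL1). The cells were wild-type eosinophils grown from bone marrow, first with 100 ng/mL each of SCF and FLT3 ligand until day 4 and then with 20 ng/mL IL-5. On day 14 dead cells were removed, and the cells then received IL-33, an alarmin cytokine, at 2.5 ng/mL for 3 hours (3 libraries) or PBS alone (3 libraries). Both groups had therefore matured in IL-5, the main survival factor of eosinophils, and cells already dead were missing from both. The labels name no separate mice or cultures behind the replicates, so every p-value below reflects the spread among these 6 libraries alone, and that spread may be technical.

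BCL2 family proteins decide at the outer mitochondrial membrane whether a cell enters apoptosis. The effectors BAX and BAK open the membrane, BH3-only proteins such as BIM set them off, and the pro-survival members bind and hold both kinds in check. MCL1 is known for its rapid turnover, whereas BCL-XL and BCL2 are longer-lived, and granulocytes, which live briefly once growth factor is withdrawn, depend on such proteins.

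The sequences of the A1 copies are shown first, because the copies are near-identical and may share reads. Bcl2a1d (chr9:88723285-88731914, minus strand), Bcl2a1a (chr9:88956900-88962419, plus strand) and Bcl2a1b (chr9:89199209-89207827, plus strand) lie in this order on mouse chromosome 9 of GRCm38 (mm10), with gaps of 224985 and 236789 bases between neighbours. Their coding sequences all have 516 bases. Only 12 of these positions differ among the copies, and 7 of the 12 fall in the first 120 coding bases, printed here from the GENCODE vM21 transcripts with the differing positions in capitals.
Bcl2a1a: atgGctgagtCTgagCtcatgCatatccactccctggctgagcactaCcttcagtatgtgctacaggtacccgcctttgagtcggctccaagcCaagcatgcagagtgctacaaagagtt
Bcl2a1b: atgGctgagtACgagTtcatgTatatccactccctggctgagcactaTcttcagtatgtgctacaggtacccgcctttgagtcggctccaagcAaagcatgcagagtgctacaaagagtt
Bcl2a1d: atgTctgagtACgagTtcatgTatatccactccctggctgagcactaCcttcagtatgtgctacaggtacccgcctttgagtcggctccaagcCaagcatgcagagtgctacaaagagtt
Bcl2a1a and Bcl2a1b differed at 11 coding positions (97.9% identity), Bcl2a1a and Bcl2a1d at 7 (98.6%), and Bcl2a1b and Bcl2a1d at 6 (98.8%). Of all 100-base windows in each transcript, 43.5% for Bcl2a1a, 56.8% for Bcl2a1b and 54.7% for Bcl2a1d also occurred in a transcript of another gene. The annotated gene Gm29094 shares 49.1% of the exon bases of Bcl2a1b on the same strand. Neither read length nor strand setting of the counting is known from the sources at hand, so the values of single copies are uncertain, and the copies are also given as a sum. The sum does not depend on how reads were split among the copies. Reads shared between copies or with Gm29094 may have been left uncounted, and the sum would then be too low as well.

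Among the other members, no 100-base window of the Bcl2l1 or Mcl1 transcript (0% each) was shared with another gene. For Bcl2l2, 11.7% of windows were shared with the overlapping Gm20521. For Bcl2, 5.63% were shared with the antisense gene D630008O14Rik, which overlaps 6.09% of its exon bases.

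All libraries expressed eosinophil genes such as Prg2, Epx and Alox15, with Prg2 between 11033 and 20834 normalized counts in the IL-33 libraries and between 28512 and 41054 in the PBS libraries. Normalized counts are gene counts divided by 1 scaling factor per library. Over all genes, the libraries held between 9362650 and 10785521 reads with IL-33 and between 8218303 and 8981930 with PBS. IL-33 replicate 1 differed from the other IL-33 libraries in several values. Across genes, its log2 values correlated at r = 0.952 with IL-33 replicate 2, 0.922 with IL-33 replicate 3 and 0.941, 0.914 and 0.917 with PBS replicates 1, 2 and 3, and IL-33 replicates 2 and 3 correlated at 0.969. The ribosomal RNA precursor gene Rn45s took 24.3% of the reads of IL-33 replicate 1, against 59.6% in IL-33 replicate 2 and 54.8% in IL-33 replicate 3. In the PBS libraries it took 13.7% to 24.8%. Without Rn45s, IL-33 replicates 1, 2 and 3 held 7129435, 4355586 and 4229504 reads, and the PBS libraries 6592044 to 7091546. IL-33 replicates 2 and 3 were therefore the shallowest libraries for the other genes. With limma, 3359 of 10544 genes tested were called at a Benjamini-Hochberg adjusted p under 0.05. Leaving out IL-33 replicate 1 gave 5960 calls and leaving out IL-33 replicate 2 gave 1713. Leaving out PBS replicate 1, 2 or 3 gave 1784, 1204 or 1060. The direction of the calls also depended on scaling: 54.7% of them were higher with the deposited scaling, 4.76% after scaling every library to the same total, and 21.0% after scaling to the same total without Rn45s. The median log2 fold change over all genes was −0.03, −1.06 and −0.45 under these scalings.

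Summed markers of other cell types moved too. The eosinophil list of 11 genes summed to 24617 to 35154 normalized counts with IL-33 and 52876 to 63914 with PBS (9 genes lower, 1 higher). The macrophage or monocyte list of 10 summed to 25220 to 32064 with IL-33 and 9031 to 11592 with PBS, mostly through Emr1 and Csf1r. Emr1 was already at 6636 to 8913 in the PBS libraries. Of the 8 genes tested in this list, 3 were called higher and 1 lower. Cd14 was at 802 to 1012 with IL-33 and 48.9 to 106 with PBS. Ccr2 went the other way, at 4.61 to 15.3 with IL-33 and 24.7 to 47.5 with PBS. C1qa stayed between 0 and 2.70 with IL-33 and at 0 with PBS. The dendritic cell list of 8 summed to 497 to 786 with IL-33 and 312 to 421 with PBS, with 6 of its genes under 10 in every library. The neutrophil list of 10 summed to 2293 to 3024 with IL-33 and 2884 to 3562 with PBS. The mast cell or basophil list of 10 summed to 131 to 356 with IL-33 and 187 to 476 with PBS, with Mcpt4 at 0 throughout. The progenitor list of 7 summed to 419 to 677 with IL-33 and 553 to 766 with PBS, and the T, B or NK cell list of 9 to 45.8 to 76.4 with IL-33 and 66.9 to 78.4 with PBS, with Ncr1 at 0 throughout. Of the neutrophil genes tested, 0 of 9 were called higher and 3 lower, and of the mast cell or basophil genes 0 of 6 higher and 2 lower. Of the dendritic cell genes 2 of 2 were higher. Of the progenitor genes 0 of 3 were called, and of the T, B or NK cell genes 0 of 2. The part of these cells in the results that follow was not tested. In bulk samples, fewer cells of a type and less RNA per cell cannot be told apart.

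IL-33 was followed by higher transcript levels of 6 of the 7 pro-survival genes. Bcl2l1 had the largest fold change with the deposited scaling and all libraries, Mcl1 and Bcl2 rose by smaller factors, the A1 copies rose by an amount that varied between IL-33 libraries, and Bcl2l2 was not called. Over all genes tested, 17.4% were called higher and 14.4% lower, and 25.5% had every IL-33 library above every PBS library, against 6, 0 and 6 of the 7 members. Bcl2a1d reached the minimum of 10 normalized counts only in the IL-33 libraries, so it entered the test only through the group where it was high. Of the 6 members at 10 or more in all 6 libraries, 5 were called higher. In IL-33 replicate 1 alone Bcl2a1d had a larger log2 fold change (4.73) than Bcl2l1 (3.77), as it did with the Rn45s share as a covariate (4.79, against 3.67 for Bcl2l1). The median log2 fold change was 1.94 over the members and −0.03 over all genes tested.

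**Figure D1:**
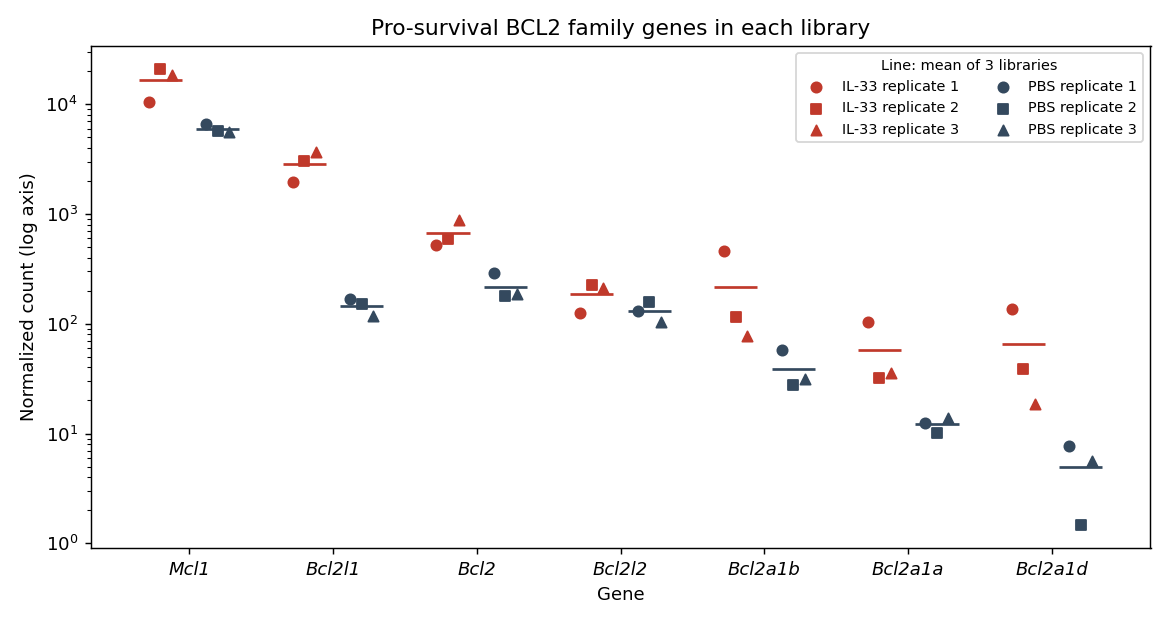
Normalized count (log axis) of each pro-survival gene in each IL-33 library (red) and each PBS library (dark blue), with a line at the mean of 3 libraries. The groups do not overlap for any gene but Bcl2l2, and IL-33 replicate 1 is the highest library for the 3 A1 copies and the lowest IL-33 library for the other genes.

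Bcl2l1 encodes BCL-XL, which binds BIM, BAX and BAK. The gene lies at chr2:152780668-152831728 on the minus strand, with 4586 annotated exon bases. Its normalized counts were 1974, 3033 and 3646 in IL-33 replicates 1, 2 and 3, against 168, 151 and 117 in PBS replicates 1, 2 and 3. Every IL-33 library was far above every PBS library, and the lowest IL-33 value was 11.8 times the highest PBS value. The means were 2884 ± 846 with IL-33 and 145 ± 26.1 with PBS (SD, n = 3 each), a ratio of 19.9. The log2 fold change was 4.27 (SE 0.26, 95% interval 3.69 to 4.86, adjusted p = 6.19e-05, limma with Benjamini-Hochberg adjustment), which ranked 25 from the top among 10544 genes. The counts behind these values were between 1972 and 2195 reads per library with IL-33 and between 167 and 216 with PBS. Each IL-33 library alone, set against the PBS mean, gave a log2 difference of 3.77, 4.39 and 4.66 for replicates 1, 2 and 3. The gene was called in all 20 alternative analyses, with log2 fold changes between 3.23 after scaling to equal totals and 4.52 without IL-33 replicate 1.

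RefSeq (GRCm38.p6) gives Bcl2l1 3 start sites in the promoter table, and Mcl1 1. The windows of all members (250 bases before to 50 after each start) were searched on both strands for the NF-kB letters GGG, any 2 bases, TTTCC. These 2 genes are shown because only theirs held that pattern. Other forms of NF-kB sites were not searched. A match, or its absence in the other members, therefore does not show whether a window holds an NF-kB site. The windows run 5′ to 3′ on the gene's own strand, chr2:152830668-152830967 (minus strand) for Bcl2l1 and chr3:95658471-95658770 (plus strand) for Mcl1, and the capitals mark the match, which reads on the opposite strand.
Bcl2l1: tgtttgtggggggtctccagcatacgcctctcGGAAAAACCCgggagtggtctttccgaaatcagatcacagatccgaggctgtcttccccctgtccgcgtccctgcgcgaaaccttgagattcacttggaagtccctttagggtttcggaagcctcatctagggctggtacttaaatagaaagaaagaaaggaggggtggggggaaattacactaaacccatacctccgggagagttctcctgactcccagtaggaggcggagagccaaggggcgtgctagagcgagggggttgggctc
Mcl1: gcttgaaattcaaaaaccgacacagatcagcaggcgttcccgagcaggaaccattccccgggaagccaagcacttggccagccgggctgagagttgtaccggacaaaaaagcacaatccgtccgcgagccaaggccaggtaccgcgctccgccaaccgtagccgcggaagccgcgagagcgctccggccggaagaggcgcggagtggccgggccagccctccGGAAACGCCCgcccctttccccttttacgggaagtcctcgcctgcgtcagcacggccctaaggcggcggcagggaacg
The match began 218 bases before one of the 3 Bcl2l1 start sites and 28 bases before that of Mcl1. The windows of the other Bcl2l1 start sites held 0 matches. Of 32851 windows of all genes, 1.63% held this pattern. No member window held the STAT letters TTCNNNGAA, present in 8.30% of all windows, or the CREB letters TGACGTCA, present in 1.79%, so no match overlapped another motif searched. A match describes the sequence only, and no binding was measured.

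Mcl1 (chr3:95658788-95663176, plus strand, 3418 exon bases) encodes a protein that holds BIM, NOXA and BAK. Its normalized counts were 10441, 21047 and 18478 in IL-33 replicates 1, 2 and 3, against 6554, 5706 and 5626 in PBS replicates 1, 2 and 3. The groups did not overlap, although IL-33 replicate 1 lay nearer to the PBS libraries than the other two did, at 1.59 times the highest PBS value. The means were 16655 ± 5533 with IL-33 and 5962 ± 514 with PBS (SD, n = 3 each), a ratio of 2.79. Mcl1 rose with a log2 fold change of 1.42 (SE 0.26, 95% interval 0.83 to 2.02, adjusted p = 0.00653, limma with Benjamini-Hochberg adjustment). Set against the PBS mean, IL-33 replicates 1, 2 and 3 alone gave 0.81, 1.82 and 1.64. With the Rn45s share as a covariate, a fit that leans on IL-33 replicate 1, the log2 fold change was 0.74 (adjusted p = 0.0324, limma). It was 0.78 with quantile normalization (adjusted p = 0.0323) and 0.38 after scaling to equal totals (adjusted p = 0.180, not called), both by limma. The equal-totals value lies 1.44 above the median of all genes under that scaling, and the value with the deposited scaling 1.46 above its own. Such scaling multiplies all genes of a library by the same factor. These distances are therefore nearly equal by construction, apart from the 1 added to each value, and do not test the rise.

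Bcl2, the founding member of the family, encodes a protein that binds BIM and BAX. It spans chr1:106538178-106714274 on the minus strand, with 9157 exon bases. It had 522, 597 and 876 normalized counts in IL-33 replicates 1, 2 and 3, against 290.4, 178 and 185 in PBS replicates 1, 2 and 3. IL-33 replicate 3 was the highest of the IL-33 libraries and PBS replicate 1 the highest of the PBS libraries, and the groups did not overlap. The means were 665 ± 187 with IL-33 and 218 ± 62.9 with PBS (SD, n = 3 each), a ratio of 3.05. The gene rose with a log2 fold change of 1.61 (SE 0.27, 95% interval 0.99 to 2.22, adjusted p = 0.00461, limma with Benjamini-Hochberg adjustment), and by 1.29, 1.49 and 2.04 in IL-33 replicates 1, 2 and 3 taken alone. After scaling to equal totals it was not called (0.57, adjusted p = 0.160, limma), a value 1.62 above the median of all genes, against 1.64 with the deposited scaling. As for Mcl1, these distances are nearly equal by construction and do not test the rise.

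Bcl2l2 (chr14:54883377-54888234, plus strand, 4462 exon bases) encodes BCL-W, a pro-survival protein close in function to BCL-XL. Its normalized counts were 125, 226 and 214 in IL-33 replicates 1, 2 and 3, against 130, 157 and 105 in PBS replicates 1, 2 and 3. IL-33 replicate 1 fell within the PBS range and the other two IL-33 libraries lay above it, so the groups overlapped. The means were 188 ± 55.1 with IL-33 and 131 ± 26.2 with PBS (SD, n = 3 each). The log2 fold change of 0.49 was not called (SE 0.28, 95% interval −0.14 to 1.13, adjusted p = 0.198, limma with Benjamini-Hochberg adjustment). It was called without IL-33 replicate 1 (0.76, adjusted p = 0.00776). With IL-33 replicate 1 alone it was −0.046 (adjusted p = 0.897), in a fit where the PBS libraries alone supply the spread. The sign of the Bcl2l2 change also turned after scaling to equal totals (−0.54, adjusted p = 0.134, limma). With the Rn45s share as a covariate, a fit that leans on IL-33 replicate 1, it was −0.17 (adjusted p = 0.703, limma). The interval with all libraries holds no change, and its upper end lies below the fitted log2 fold changes of Mcl1, Bcl2 and Bcl2l1. It still overlaps the intervals of Mcl1 (0.83 to 2.02) and Bcl2 (0.99 to 2.22), but not that of Bcl2l1 (3.69 to 4.86).

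The A1 copies encode a protein that binds BIM and NOXA. Summed over Bcl2a1a, Bcl2a1b and Bcl2a1d, the normalized counts were 697, 186 and 132 in IL-33 replicates 1, 2 and 3, against 77.7, 39.3 and 51.0 in PBS replicates 1, 2 and 3. All IL-33 libraries were above all PBS libraries, but IL-33 replicate 1 stood far above the other two IL-33 libraries. The means were 338 ± 312 with IL-33 and 56.0 ± 19.7 with PBS (SD, n = 3 each), a ratio of 6.04. The sum rose with a log2 fold change of 2.24 (SE 0.57, 95% interval 0.94 to 3.54, adjusted p = 0.0212, limma with Benjamini-Hochberg adjustment). IL-33 replicates 1, 2 and 3 alone gave 3.67, 1.77 and 1.28 against the PBS mean. Without IL-33 replicate 1 it was 1.53 (adjusted p = 0.00102). It was not called without IL-33 replicate 2 (2.48, adjusted p = 0.0515), PBS replicate 2 (2.02, adjusted p = 0.0825) or PBS replicate 3 (2.20, adjusted p = 0.0805), by limma each time. After scaling to equal totals the sum was at 1.21 (adjusted p = 0.184, limma, not called), which lies 2.27 above the median of all genes. Scaling leaves this distance nearly unchanged by construction, so the distance does not test the rise of the sum. With the Rn45s share as a covariate, a fit that leans on IL-33 replicate 1, the log2 fold change of the sum was 3.65 (adjusted p = 0.00253, limma).

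Each A1 copy was called higher on its own, from few reads. Bcl2a1b, with 817 exon bases, had 456, 115 and 78.0 normalized counts in IL-33 replicates 1, 2 and 3, against 57.5, 27.6 and 31.4 in PBS replicates 1, 2 and 3 (log2 fold change 2.09, SE 0.61, adjusted p = 0.0330, limma). Bcl2a1a, with 819 exon bases, had 103, 32.3 and 35.6 in the IL-33 replicates, against 12.4, 10.2 and 13.98 in the PBS replicates (1.94, SE 0.46, adjusted p = 0.0160, limma). Bcl2a1d, with 863 exon bases, had 138, 38.4 and 18.6 in the IL-33 replicates, against 7.77, 1.46 and 5.59 in the PBS replicates (3.19, SE 0.75, adjusted p = 0.0164, limma). For each copy IL-33 replicate 1 was the highest library and no PBS library reached any IL-33 library. The Bcl2a1d values of the PBS libraries rest on 10, 2 and 8 reads, and none reached the filter minimum of 10 normalized counts. Bcl2a1d thus entered the test only through the IL-33 libraries, where it was high. Its calls and adjusted p-values here do not stand on the same footing as those of the other copies. Without IL-33 replicate 1 all 3 copies stayed called, and the log2 fold change was 1.34 for Bcl2a1b, 1.41 for Bcl2a1a and 2.42 for Bcl2a1d. Bcl2a1b was not called without IL-33 replicate 2 (2.33, adjusted p = 0.0696), PBS replicate 1 (2.40, adjusted p = 0.0551), PBS replicate 2 (1.89, adjusted p = 0.112) or PBS replicate 3 (1.98, adjusted p = 0.115). Bcl2a1a lost its call without PBS replicate 1 (1.96, adjusted p = 0.0520), 2 (1.83, adjusted p = 0.0664) or 3 (2.04, adjusted p = 0.0576). Bcl2a1d was not called without IL-33 replicate 2 (3.32, adjusted p = 0.0526), PBS replicate 2 (2.64, adjusted p = 0.0629) or PBS replicate 3 (3.36, adjusted p = 0.0557), by limma throughout. The number of members called higher was accordingly 7 without IL-33 replicate 1, 4 with either IL-33 replicate 2 or PBS replicate 1 left out, and 3 with either of the other PBS libraries left out. The share of all genes tested that was called higher moved as well, and was 28.3% without IL-33 replicate 1. It was 8.99% without IL-33 replicate 2, and 10.7%, 7.60% and 6.70% without PBS replicates 1, 2 and 3.

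Of the reads counted for A1, most went to one copy in every library. Bcl2a1b took 65.4%, 62.0% and 59.0% of the copies' reads in IL-33 replicates 1, 2 and 3, against 74.0%, 70.4% and 61.6% in PBS replicates 1, 2 and 3. Bcl2a1d took 19.7% (exact 95% interval 17.0 to 22.7), 20.7% (13.8 to 29.0) and 14.1% (7.26 to 23.8) in the IL-33 replicates, against 10.0% (4.90 to 17.6), 3.70% (0.452 to 12.7) and 11.0% (4.85 to 20.5) in the PBS replicates. Bcl2a1b was the most counted copy in every library. The Bcl2a1d share was higher in every IL-33 library than in every PBS library, and the intervals, which cover counting error only, overlapped for some pairs of libraries but not for PBS replicate 2 against IL-33 replicates 1 and 2. The shares rest on 775, 121 and 78 reads with IL-33 and 100, 54 and 73 with PBS.

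**Figure D2:**
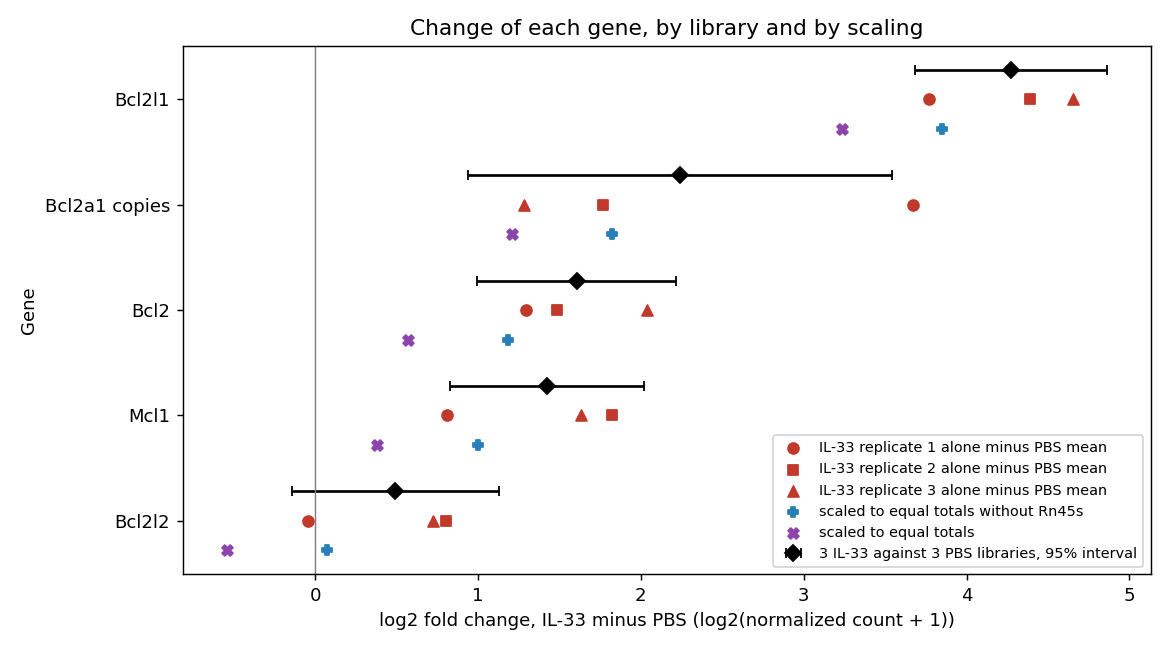
log2 fold change, IL-33 minus PBS, of each gene with its 95% interval (black), each IL-33 library alone minus the PBS mean (red) and the value after 2 other scalings (blue and purple). IL-33 replicate 1 gives the largest value for the A1 copies (3.67) and the smallest for Bcl2l1 (3.77), Bcl2 (1.29), Mcl1 (0.81) and Bcl2l2 (−0.046).

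Levels of different genes were compared per kilobase of annotated exon. Per kilobase, Mcl1 was the most abundant member in both groups, at 4873 ± 1619 with IL-33 and 1744 ± 150.4 with PBS (SD, n = 3 each, as are all means here). In the IL-33 libraries it was followed by Bcl2l1 (629 ± 184), the A1 copies summed (409.7 ± 377), Bcl2 (72.6 ± 20.4) and Bcl2l2 (42.2 ± 12.4). Bcl2l1 and the A1 sum overlapped there, since A1 was the higher of the pair in IL-33 replicate 1 (844 against 430.3 for Bcl2l1) and the lower in replicates 2 and 3. In the PBS libraries the order after Mcl1 was the A1 sum (68.2 ± 23.9), Bcl2l1 (31.7 ± 5.68), Bcl2l2 (29.3 ± 5.86) and Bcl2 (23.8 ± 6.86), and the last 3 overlapped one another. By mean, Bcl2l1 thus stood above the A1 sum with IL-33 and below it with PBS. The A1 level may be too low beside the other members, if shared reads were left uncounted. The members together summed to 6026 ± 1434 per kilobase with IL-33 and 1897 ± 184 with PBS.

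The make-up of that sum differed between the groups. Bcl2l1 made up 9.75%, 9.24% and 12.2% of it in IL-33 replicates 1, 2 and 3, against 1.73%, 1.83% and 1.43% in PBS replicates 1, 2 and 3. Its share was close among the IL-33 libraries, including replicate 1, and no PBS library came near it. Mcl1 made up 69.2%, 86.0% and 83.1% in the IL-33 replicates, against 90.9%, 92.5% and 92.6% in the PBS replicates. The A1 sum made up 19.1%, 3.14% and 2.47% in the IL-33 replicates, against 4.48%, 2.66% and 3.49% in the PBS replicates, so its share lay inside or below the PBS range but for IL-33 replicate 1, where it was far above. Bcl2 made up 0.910% to 1.47% with IL-33 and 1.08% to 1.504% with PBS. Bcl2l2 made up 0.635% to 0.736% with IL-33 and 1.32% to 1.95% with PBS. These shares do not depend on the scaling of the libraries, and no test was made of them. Any A1 reads left uncounted would lower the A1 share and raise the others.

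**Figure D3:**
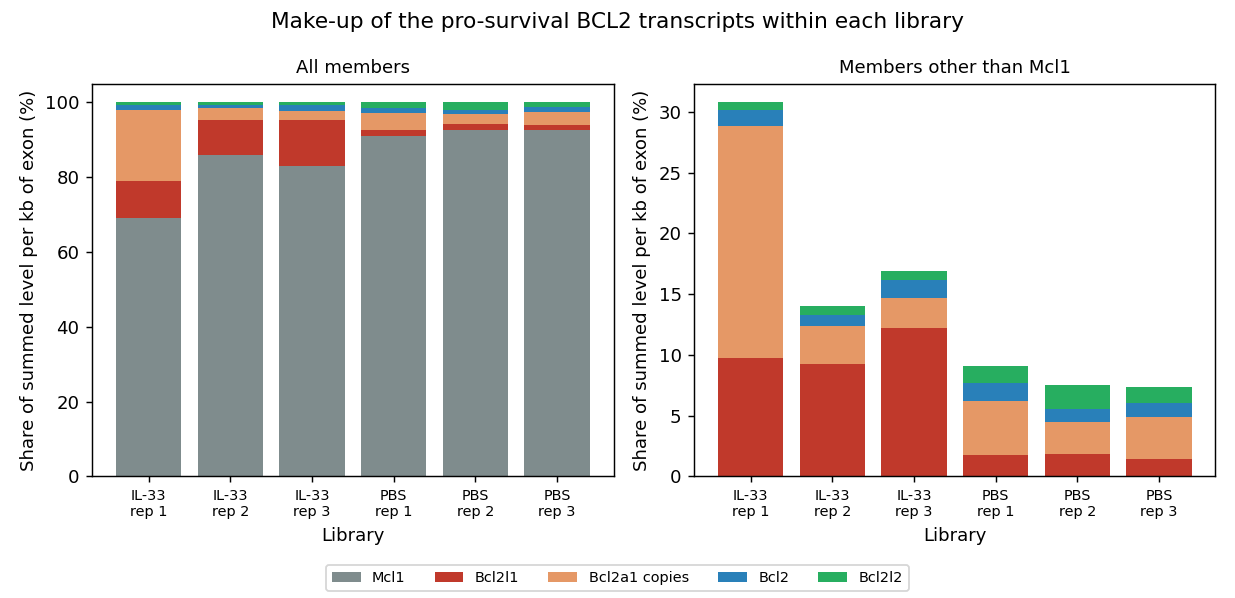
Share (%) of each gene in the level per kilobase of exon summed over the pro-survival genes, in each library, for all of them (left) and without the Mcl1 part (right). The Bcl2l1 share is 9.24% to 12.2% in the IL-33 libraries and 1.43% to 1.83% in the PBS libraries, and the A1 copies take 19.1% in IL-33 replicate 1.

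Ratios between 2 members within a library are likewise free of the library's scaling factor, apart from the 1 added to each value. They are log2 ratios of normalized counts, not per length, and serve only to compare the groups. Bcl2l1 over Mcl1 averaged −2.51 ± 0.25 with IL-33 and −5.36 ± 0.19 with PBS (SD, n = 3 each), a difference of 2.85. Bcl2l1 over Bcl2 averaged 2.10 ± 0.22 with IL-33 and −0.56 ± 0.29 with PBS, a difference of 2.67. Bcl2l1 over Bcl2l2 averaged 3.93 ± 0.18 with IL-33 and 0.15 ± 0.21 with PBS, a difference of 3.78. The groups were apart in each of these ratios by many times the spread among libraries. Mcl1 over Bcl2l2 averaged 6.45 ± 0.08 with IL-33 and 5.52 ± 0.30 with PBS, a difference of 0.93. Bcl2 over Bcl2l2 differed by 1.11 and the A1 sum over Bcl2l2 by 1.75, and neither overlapped between the groups. For A1 over Bcl2l2 the groups were barely apart, with −0.69 in the lowest IL-33 library and −0.74 in the highest PBS library, and the difference was 0.76 without IL-33 replicate 1. For these 6 of the 10 pairs compared, the exact two-sided permutation p was 0.1, the smallest that 3 libraries against 3 allow, and 0.167 after Benjamini-Hochberg adjustment over the 10 pairs, so none could pass 0.05. Bcl2 over Mcl1 overlapped, at −4.62 ± 0.45 with IL-33 and −4.80 ± 0.27 with PBS (difference 0.18, exact permutation p = 0.7, adjusted p = 0.778). The 3 remaining pairs all held the A1 sum, and their groups overlapped. Bcl2l1 over A1 differed by 2.03, or by 1.36 to 3.00 with 1 library left out (exact permutation p = 0.2, adjusted p = 0.286), A1 over Bcl2 by 0.63 (exact permutation p = 0.7, adjusted p = 0.778) and A1 over Mcl1 by 0.82 (exact permutation p = 0.8, adjusted p = 0.8). Without IL-33 replicate 1, A1 over Bcl2 was −0.24 and A1 over Mcl1 −0.20.

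**Figure D4:**
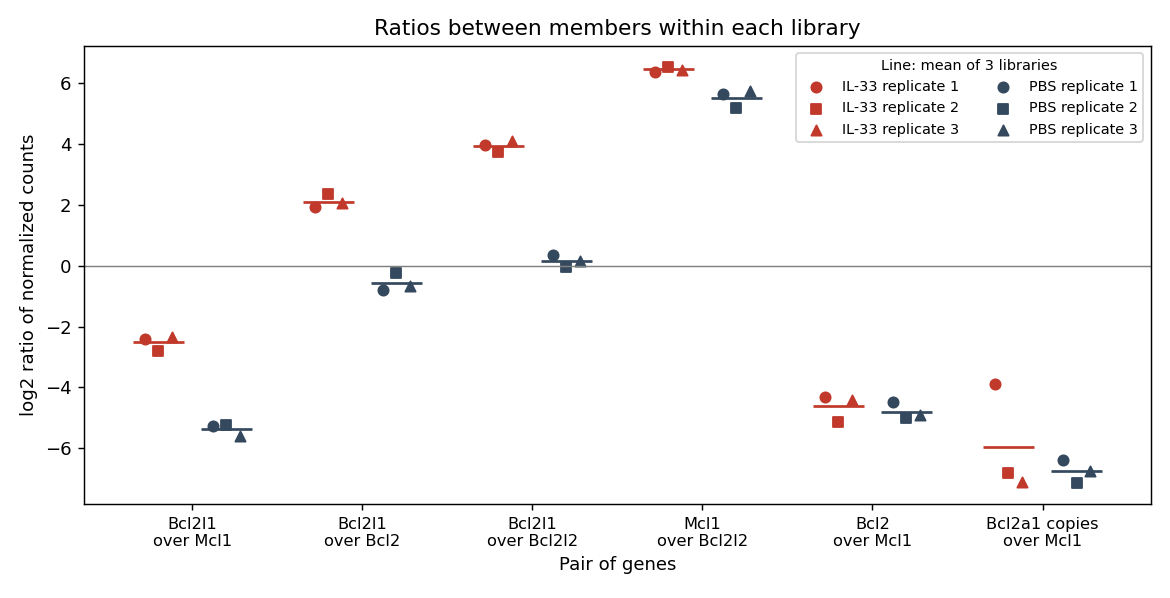
log2 ratio of normalized counts of 2 members within each IL-33 library (red) and each PBS library (dark blue), with a line at the mean of 3 libraries. The ratios with Bcl2l1 on top and Mcl1 over Bcl2l2 are apart between the groups, Bcl2 over Mcl1 overlaps, and A1 over Mcl1 is high only in IL-33 replicate 1.

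The genes that oppose the pro-survival members moved partly in the same direction. Of 11 BCL2 family antagonists and effectors, 8 were tested, 4 were called higher, 0 lower and 4 not called, with a median log2 fold change of 0.78 against −0.03 over all genes. Beside this, 17.4% of all genes tested were called higher and 14.4% lower. After scaling to equal totals the list had 1 higher and 3 lower, and with Rn45s kept out of the totals 3 higher and 2 lower. Of all 10544 genes, 264 were higher and 5287 lower under the former scaling, and 951 higher and 3570 lower under the latter. Bmf, a BH3-only gene, had 166, 168 and 247 normalized counts in the IL-33 replicates, against 35.7, 31.3 and 48.9 in the PBS replicates (log2 fold change 2.30, SE 0.26, adjusted p = 0.000918, limma). Bax, the effector, rose by 1.39 (SE 0.23, adjusted p = 0.00425, limma), and was not called after scaling to equal totals (0.35, adjusted p = 0.258). Bcl2l11, which encodes BIM, had 6790, 4443 and 3229 in IL-33 replicates 1, 2 and 3, against 2197, 1852 and 1661 in PBS replicates 1, 2 and 3 (1.28, SE 0.27, adjusted p = 0.0104, limma). Its highest library was IL-33 replicate 1, as for the A1 copies. With PBS replicate 3 left out its call was lost (1.19, adjusted p = 0.0580, limma), and the list had 2 genes higher and 0 lower. Of all genes tested, 706 were then called higher and 354 lower. With quantile normalization (0.77, adjusted p = 0.0699) and after scaling to equal totals (0.24, adjusted p = 0.660) Bcl2l11 was not called either.

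BIM is a BH3-only protein that every pro-survival member binds. The ratio of each member to Bcl2l11 was chosen after the values were seen, so no test is given, and no other antagonist was compared in this way. Bcl2l1 over Bcl2l11 (log2 ratio of normalized counts) was −1.78, −0.55 and 0.18 in IL-33 replicates 1, 2 and 3, against −3.70, −3.60 and −3.82 in PBS replicates 1, 2 and 3. This ratio was higher in every IL-33 library, and least so in replicate 1. Mcl1 over Bcl2l11 was 0.62, 2.24 and 2.52 in the IL-33 replicates, against 1.58, 1.62 and 1.76 in the PBS replicates. IL-33 replicate 1 lay below all PBS libraries and the other two above them, so the mean difference of 0.14 describes neither. Bcl2 over Bcl2l11 overlapped between the groups, with a mean difference of 0.32, and so did Bcl2l2 over Bcl2l11, with a mean difference of −0.79. The A1 sum over Bcl2l11 was −3.28, −4.57 and −4.60 in IL-33 replicates 1, 2 and 3, against −4.80, −5.52 and −5.00 in PBS replicates 1, 2 and 3. Those groups did not overlap, and the mean difference was 0.96.

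Genes that act downstream of the mitochondrial step were listed in 2 groups. Of 8 genes of the apoptosome and executioner caspases, 0 were called higher and 1 lower (median −0.07), beside 17.4% higher and 14.4% lower over all genes tested. Apaf1, the scaffold of the apoptosome, averaged 572 ± 19.1 with IL-33 and 918 ± 103 with PBS (log2 fold change −0.68, SE 0.16, adjusted p = 0.0160, limma). It was not called without IL-33 replicate 2 (−0.70, adjusted p = 0.0526), PBS replicate 2 (−0.59, adjusted p = 0.0941) or PBS replicate 3 (−0.69, adjusted p = 0.0797). Htra2, a protease that antagonises IAP proteins, was not called (0.62, adjusted p = 0.108, limma), but was without IL-33 replicate 1 (0.89, adjusted p = 0.00192), and its sign turned after scaling to equal totals (−0.42, adjusted p = 0.237). Of the genes of the IAP (inhibitor of apoptosis) family, 8 of 9 were tested, 1 was higher and 2 lower (median −0.76). After scaling to equal totals the apoptosome list had 0 higher and 4 lower and the IAP list 0 higher and 6 lower. Under that scaling 5287 of all 10544 genes tested were called lower and 264 higher. Birc3 averaged 2056 ± 542 with IL-33 and 1114 ± 110.1 with PBS (0.86, SE 0.21, adjusted p = 0.0176, limma), a sign that turned after scaling to equal totals (−0.18, adjusted p = 0.719). Birc3 was also not called with Rn45s kept out of the totals (0.43, adjusted p = 0.152) or with quantile normalization (0.47, adjusted p = 0.128). Naip5 (−1.50, adjusted p = 0.0279) and Naip2 (−1.09, adjusted p = 0.0375), sensors of bacterial flagellin and secretion systems from a family of similar copies, were lower by limma. Without PBS replicate 1, 2 or 3 in turn, 0 IAP genes were called, with Birc3 at 0.80 to 0.93, Naip5 at −1.54 to −1.42 and Naip2 at −1.11 to −1.07. Of all genes tested, 1126, 801 and 706 were called higher and 658, 403 and 354 lower in those fits. Without IL-33 replicate 2, Naip5 (−1.52, adjusted p = 0.0838) and Naip2 (−1.11, adjusted p = 0.102) were not called, nor was Naip2 without IL-33 replicate 3 (−0.72, adjusted p = 0.0506). Without IL-33 replicate 1 the list had 2 higher and 5 lower, beside 2989 higher and 2971 lower over all genes tested.

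Among 7 tested genes of MCL1 protein turnover, 1 was called higher and 0 lower (median 0.07). Of all genes tested, 17.4% were called higher and 14.4% lower. Fbxw7, part of a ubiquitin ligase that marks MCL1 for degradation, averaged 971 ± 40.3 with IL-33 and 539 ± 25.2 with PBS (0.85, SE 0.15, adjusted p = 0.00562, limma), with a sign that turned after scaling to equal totals (−0.19, adjusted p = 0.626). Gsk3b, a kinase acting on MCL1 before that step, was not called (0.45, adjusted p = 0.0831, limma) but was without IL-33 replicate 1 (0.59, adjusted p = 0.00293). The list then had 2 higher and 1 lower, and all genes tested 2989 higher and 2971 lower. The sign of Gsk3b turned with quantile normalization (−0.01) and after scaling to equal totals (−0.59). Of 6 other BCL2-related genes, 2 were tested and neither was called by limma, edgeR or DESeq2 or had an unadjusted p under 0.05, with Bcl2l12 at −0.53 (adjusted p = 0.262) and Bcl2l13 at 0.12 (adjusted p = 0.645). Bcl2l13 took another sign when IL-33 replicate 3 was left out (−0.02), when libraries were scaled to equal totals (−0.91, adjusted p = 0.0495) or to equal totals without Rn45s (−0.30), and Bcl2l12 was called after scaling to equal totals (−1.52, adjusted p = 0.0173).

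Of 14 partners of BCL2 proteins outside the family, 2 were called higher and 3 lower (median −0.20). The shares over all genes tested were 17.4% higher and 14.4% lower. The split was 0 higher and 7 lower after scaling to equal totals, and 1 higher and 7 lower with Rn45s kept out of the totals. All 10544 genes split into 264 higher and 5287 lower under the former, and 951 higher and 3570 lower under the latter. Nr4a1, an orphan nuclear receptor that can bind BCL2, had 1920.5, 1353 and 1058 normalized counts in the IL-33 replicates, against 619.7, 289.6 and 268 in the PBS replicates (1.94, SE 0.35, adjusted p = 0.00616, limma). The co-chaperone Bag3 rose by 1.08 (SE 0.27, adjusted p = 0.0193, limma). Scaling to equal totals ended the calls of Nr4a1 (0.90, adjusted p = 0.136) and Bag3 (0.05, adjusted p = 0.928), and Bag3 was also not called with Rn45s kept out of the totals (0.66, adjusted p = 0.0910). The calcium channel genes Itpr3 (−1.06, SE 0.16, adjusted p = 0.00342) and Itpr2 (−0.72, SE 0.15, adjusted p = 0.0113), whose products bind BCL2 and BCL-XL, and the mitochondrial channel gene Vdac2 (−1.09, SE 0.34, adjusted p = 0.0409) were lower by limma. With IL-33 replicate 2 or one of PBS replicates 2 and 3 left out, the list had 1 higher and 1 lower, with Bag3 (0.96 to 1.08), Itpr2 (−0.70 to −0.68) and Vdac2 (−1.10 to −1.05) not called. All genes tested had 948, 801 and 706 higher and 765, 403 and 354 lower in those fits. Vdac2 was also not called without IL-33 replicate 3 (−0.73) or PBS replicate 1 (−1.12), or by edgeR (−0.97, adjusted p = 0.0540). Without IL-33 replicate 1 the list had 4 higher and 7 lower, beside 2989 higher and 2971 lower over all genes tested.

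Genes upstream of the members were also listed in 2 groups. Of 11 transcription factors known to act on member genes, 7 were called higher and 0 lower (median 1.19), and 5 higher and 2 lower after scaling to equal totals. Among all 10544 genes tested, 17.4% were called higher and 14.4% lower. After scaling to equal totals 264 of them were higher and 5287 lower. The 3 largest changes in the list were in genes of NF-kB subunits. Nfkb2 averaged 4138 ± 384 with IL-33 and 389.9 ± 20.6 with PBS (log2 fold change 3.40, adjusted p = 1.96e-05, limma). Nfkb1 averaged 7512 ± 1334 with IL-33 and 858 ± 58.6 with PBS (3.12, adjusted p = 4.99e-05, limma), and Relb 963 ± 121 with IL-33 and 140.6 ± 3.50 with PBS (2.76, adjusted p = 6.30e-05, limma). Of 13 genes of IL-5 survival signalling, 9 were called higher and 1 lower (median 1.07), and 3 higher and 2 lower after scaling to equal totals. No test compared any of these lists with one another. The survival kinase genes Pim2 (6.68), Pim1 (3.56) and Pim3 (3.47) had the largest changes in that list, and Il5ra, the IL-5 receptor subunit, fell by 2.53 on the log2 scale (adjusted p = 0.00250, limma), with 72.8, 53.8 and 25.4 normalized counts in the IL-33 replicates, against 248, 255 and 322 in the PBS replicates. Without 1 library these lists had 6 to 9 and 7 to 11 genes called, beside 1060 to 5960 over all genes tested.

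The genes whose pattern over the 6 libraries was most like that of a member were named by Pearson's r of log2(normalized count + 1) among 7379 genes, as a description over libraries that include both groups. For Bcl2l1 these were Junb (r = 0.9998), Marcks (0.9994) and Tfe3 (0.9994). For Mcl1 they were Ddx31 (0.9986), Mir1931 (0.9982) and Ube2j2 (0.9978), and for Bcl2 they were Ipo13 (0.9997), Homer1 (0.9987) and Camk2d (0.9983). Marcks, for example, had 731, 1209 and 1468 normalized counts in IL-33 replicates 1, 2 and 3, against 80.0, 73.5 and 52.4 in PBS replicates 1, 2 and 3.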

How the data were processed

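RNA of 6 libraries of cultured mouse eosinophils was sequenced, 3 with IL-33 and 3 with PBS. Per the labels' protocols, ribosomal RNA was removed from total RNA before directional libraries were made. The table deposited by the authors holds normalized counts, a signal: the counts of a library over its own scaling factor. The tools HISAT2, HTSeq and DESeq2 and the build mm10 are named per the submitters' processing notes. Versions, annotation and strand setting were not given in the sources used here. All values (100%) were whole multiples of 1 step per library within 0.1 of a read, so reads were recovered for depth and for the count-based tests. The number of columns left unused was 0.

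Groups were compared with lmFit and trended eBayes of limma 3.58.1 (R 4.3.3), two-sided, on values logged as log2(normalized count + 1), with differences taken as IL-33 minus PBS. Genes entered at 10 or more in at least 3 libraries, and Benjamini-Hochberg adjustment covered all 10544. Calls needed an adjusted p under 0.05. The pseudocount of 1 understates changes of low genes. Errors of means are SD and those of log2 fold changes SE. Ratios within libraries were compared by exact permutation. Coordinates, exon lengths and transcripts came from GENCODE vM21, promoter windows from RefSeq (GRCm38.p6). Without molecular identifiers, reads need not be independent molecules, and intervals on shares, at a 95% level, cover counting error only. The tests were checked on simulated counts in which all genes had the same dispersion and no library stood apart. That check therefore does not cover the wider spread of the IL-33 libraries or the distance of IL-33 replicate 1.

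The members, gene lists and tests were chosen with earlier results of these data known. Named from each list were up to 3 called genes per direction by size of change or, with fewer than 2 called, the 2 with the smallest p. Of the antagonist list 4 genes were called higher, and the 3 largest are named. The alternatives were pseudocounts of 0.5 and 5, no filter, a filter of 50, TMM, equal totals with and without Rn45s, quantile normalization, no trend, recovered reads tested with edgeR 4.0.16 and DESeq2 1.42.0, the replicate number as a block, the Rn45s share as a covariate, and each library left out with the genes tested held fixed. Setting only IL-33 replicate 1 against PBS was chosen after seeing the data.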

Additional observations from a re-analysis of the deposited data

How the results depend on the processing

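Bcl2l1 kept its call and direction in all 20 alternatives. Mcl1 and Bcl2 lost their calls in 1 alternative, scaling to equal totals (0.38 and 0.57). Under that scaling the copies Bcl2a1a (0.95), Bcl2a1b (1.07) and Bcl2a1d (2.27) and the A1 sum (1.21) were not called either, Bcl2l2 was −0.54, 1 member was called and 5551 genes were called (264 higher), beside 3359 (1837 higher) with the deposited scaling. Lists then had 2 (other BCL2-related genes), 4 (apoptosome), 6 (IAP), 3 (MCL1 turnover) and 5 (IL-5 signalling) genes called. This scaling divides by totals that include Rn45s and put the median of all genes at −1.06. Without Rn45s in the totals, Bcl2a1b was not called (1.67), and the apoptosome, IAP and partner lists had 3, 5 and 8 genes called. With the Rn45s share as a covariate, 1556 genes were called, Bcl2l2 was −0.17, and those 3 lists had 0, 1 and 3. That share was high only in IL-33 replicates 2 and 3, so this fit leans on IL-33 replicate 1. Quantile normalization gave 2 antagonists and 2 apoptosome genes called, and DESeq2 5 IAP genes. With IL-33 replicate 1 alone, Bcl2l2 was −0.046 and 4 apoptosome genes were called, with all spread taken from the PBS libraries, so that library is assumed to vary as they do. Where no construction shows the cause, the cause was not tested.

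Leaving out 1 library gave 1060 to 5960 genes and 3 to 7 members called. The log2 fold change then ranged from 0.34 to 0.76 for Bcl2l2, 1.41 to 2.24 for Bcl2a1a, 1.34 to 2.61 for Bcl2a1b, 2.42 to 3.83 for Bcl2a1d and 1.53 to 2.72 for the A1 sum. The A1 ratio to Bcl2 ranged from −0.24 to 1.33 and that to Mcl1 from −0.20 to 1.40. Called genes ranged from 2 to 5 (antagonists), 0 to 2 (apoptosome), 0 to 7 (IAP), 1 to 3 (MCL1 turnover) and 2 to 11 (partners).

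With the replicate block, 2918 genes and 6 members were called. Bcl2l1 kept 4.27 (adjusted p = 0.000343, limma) and the A1 sum 2.24 (adjusted p = 0.00650, limma). Same-numbered libraries deviated from their group means with correlations of 0.05, 0.24 and −0.16 across genes, so the numbers were not taken to pair them, and not every library correlated best with its own number. With a filter of 50, Bcl2a1a and Bcl2a1d were not tested. Depth limits the A1 copies most: the PBS libraries hold 227 reads of all 3 together.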
